A study of Mus musculus with 18 samples.

Results

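Nuclear genes for subunits of the 5 oxidative phosphorylation complexes were followed across 6 mouse genotypes. They were chosen by symbol: Ndufa, Ndufb, Ndufc, Ndufs and Ndufv (complex I, assembly factors left out), Sdha to Sdhd (complex II), Uqcr (complex III), Cox4 to Cox8 (complex IV) and Atp5 (complex V), without pseudogenes. A mean of at least 1 CPM over the 18 libraries was also required, where CPM is a gene's count scaled to a common library size. Of 54446 genes in the count table, 77 met the rule, with 37 in complex I, 4 in complex II, 8 in complex III, 11 in complex IV and 17 in complex V. All 77 passed the low-count filter and were tested. Another 13 genes fit the symbols but lay under the floor, 4 of them at 0 in every library. Cox7a1 lay just outside at 0.953 CPM and Ndufa1 was the lowest inside at 3.60 CPM. Ndufa4 is kept with complex I by its symbol, although its protein is now placed in complex IV. Atp5s is kept with complex V by its symbol, although its role was grouped apart from the complex V subunits. The symbols miss the complex III subunit Cyc1 and the complex V subunit Usmg5, which are counted with electron carriers and other partners below.

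Spinal cord was sequenced from 3 untreated animals per genotype, all aged 10 months. Q33 double knock-in mice carried a human ATXN2 gene with 33 glutamines together with human TDP-43, and Q22 double knock-in mice carried human ATXN2 with 22 glutamines together with human TDP-43. In the figures these are written Q33;TDP-43 and Q22;TDP-43. Q33, Q22 and TDP-43 mice carried 1 of these human genes alone. All knock-ins were heterozygous, so mouse alleles remained. The references were non-transgenic C57BL/6 mice (NTg). The labels do not say whether the human TDP-43 is mutated. ATXN2 binds RNA, and its glutamine tracts of intermediate length are known to raise the risk of amyotrophic lateral sclerosis, a disease in which TDP-43, also an RNA-binding protein, aggregates in neurons.

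Complexes I and II pass electrons from NADH and succinate to ubiquinone. Complex III passes them on to cytochrome c, and complex IV to oxygen. Complexes I, III and IV pump protons across the inner mitochondrial membrane, and complex V, the ATP synthase, uses that gradient to make ATP. Most subunits are nuclear genes, while the mitochondrial genome encodes the remaining ones, which include the central subunits of the pumps. In spinal cord, neurons and their long axons draw much of their ATP from this pathway.

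Many promoters of these genes are known to carry sites for the transcription factors NRF1, GABPA (an ETS-family protein) and YY1. RefSeq promoter windows (GRCm38.p6, from 250 bases before to 50 bases after the gene's start) were found for 63 members in 68 windows. Searched on both strands, 57.4% of these windows held at least 1 of GCGCANGCG (NRF1), CCGGAAG (ETS) and AAGATGG (YY1), against 19.2% of all 32851 windows and 30.1% of 14152 windows of other tested genes that also averaged 1 CPM or more. The last set had a similar base composition, with a median GC content of 60.7% against 58.0% for the members. The sites below come from members whose values carry the results further on, 1 or more for each complex, with the motif in capitals.
Ndufs4 (complex I, YY1 letters, chr13:114388045-114388074, minus strand): gcgtttgcctacaggAAGATGGcggcggtc
Sdhb (complex II, ETS letters, chr4:140961266-140961295, plus strand): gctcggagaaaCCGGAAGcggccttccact
Sdhd (complex II, ETS letters, chr9:50603877-50603906, minus strand): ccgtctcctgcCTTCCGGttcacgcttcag
Uqcrc1 (complex III, NRF1 letters, chr9:108936644-108936673, plus strand): ttccttacagCGCTTGCGCctcagactccg
Cox6a1 (complex IV, ETS letters, chr5:115348956-115348985, minus strand): ccccatttccgCTTCCGGcgcgccggtgta
Atp5l (complex V, ETS letters, chr9:44920700-44920729, minus strand): tgccgcgggtcCTTCCGGgggtgacattca
Atp5e (complex V, ETS letters, chr2:174464185-174464214, minus strand): tacggccacagCTTCCGGtagccgctcggc
The NRF1 letters stood in 30.9% of member windows, against 6.25% of all windows and 12% of those of the other expressed genes. The ETS letters stood in 23.5% of member windows, against 8.86% and 15.8%, and the YY1 letters in 14.7%, against 6.34% and 6.74%. These are matches of letters, not measured binding.

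Depth ran from 16061359 to 30978678 counts per library. Several library properties moved with genotype. The share of counts in mitochondrial ribosomal RNA was 28.7%, 26.3% and 23.4% in the Q33 double knock-in libraries, and 12.7% to 23.4% in the other 15. Hox10 and Hox11 genes, which mark the caudal cord, averaged 1.21, 3.54 and 0.55 log2 CPM in the Q33 double knock-ins. They averaged -0.78, -1.97 and -1.52 in NTg and -1.40, -2.24 and -1.69 in TDP-43, below every Q33 double knock-in. Q22 libraries were also below, at -1.90, -2.00 and -0.20. Within Q33 these levels ran from -2.46 to 2.71, and the Q22 double knock-ins had 3.51, -2.07 and -1.80. Y-linked genes were above 10 CPM in 1 of 3 Q33 double knock-ins, 1 of 3 Q22 double knock-ins, 2 of 3 Q33, 3 of 3 Q22, 2 of 3 TDP-43 and 0 of 3 NTg mice. The part of these properties in the results was tested only by adding each to the fit as a term, and those values are given below. In whole tissue, fewer cells of a type and less RNA per cell cannot be told apart.

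Within NTg cord, levels per kilobase of exon were highest in complex IV and spread widely within each complex. The median member of complex IV stood at 33.1 ± 4.65 CPM per kb in NTg (SD, n = 3), complex III at 23.2 ± 1.09, complex II at 16.2 ± 1.44, complex I at 13.1 ± 1.02 and complex V at 12.5 ± 1.16. Complex V nevertheless held the highest member, Atp5b, the catalytic beta subunit, at 144 CPM per kb, and a far lower one, Atp5g2, a c-ring gene, at 2.34. In complex I the range ran from Ndufv2, an iron-sulfur subunit of the NADH-binding module, at 56.4 CPM per kb to the accessory subunit Ndufb7 at 1.41. In complex II, Sdha, the flavoprotein, had 45.9 CPM per kb and Sdhc, a membrane anchor, 8.09. In complex III the Rieske protein gene Uqcrfs1 had 44.6 and Uqcr11 7.84, and in complex IV Cox7b had 56.0 and Cox5a 8.56. Read pairs that match several places were not counted, so members with near-identical pseudogenes are undercounted and the order of levels is uncertain for them. The order also depends on the exon length summed over each gene's annotation, which was 4522 bases for Ndufb7 and 419 for Ndufa1.

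**Figure D1:**
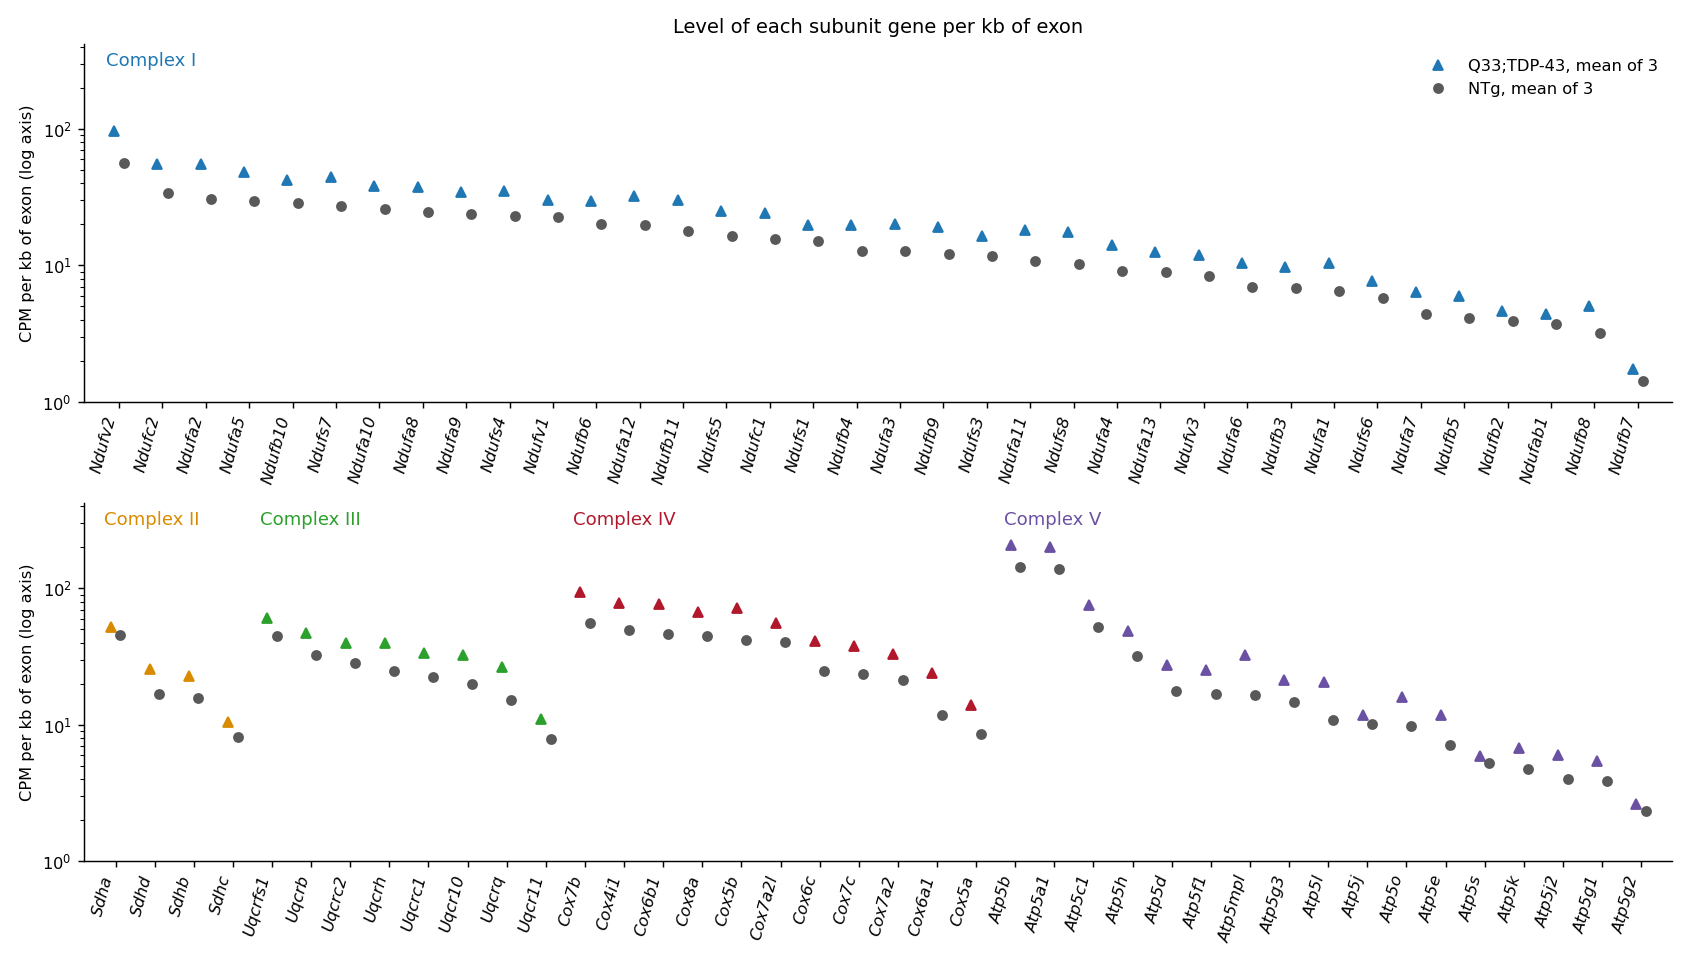
Level of the members in CPM per kb of exon (log axis), by complex, as the mean of 3 Q33 double knock-ins (triangles) and of 3 NTg mice (circles). The widest range was in complex V, from Atp5b at 144 to Atp5g2 at 2.34 CPM per kb in NTg.

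All 5 complexes had their highest median level in the Q33 double knock-in. The median member of complex I stood at 20.5 ± 3.85 CPM per kb in Q33 double knock-ins, 13.7 ± 0.862 in Q22 double knock-ins, 16.6 ± 1.28 in Q33, 16.8 ± 3.56 in Q22, 13.98 ± 4.48 in TDP-43 and 13.1 ± 1.02 in NTg (SD, n = 3 each). For complex IV these levels were 53.4 ± 9.34, 37.1 ± 4.44, 39.9 ± 2.76, 36.8 ± 2.95, 37.3 ± 7.16 and 33.1 ± 4.65 CPM per kb in the same order of genotypes. Complex V had 20.4 ± 4.06 CPM per kb in Q33 double knock-ins and 12.5 ± 1.16 in NTg, complex III 35.8 ± 6.31 and 23.2 ± 1.09, and complex II 24.3 ± 3.33 and 16.2 ± 1.44. The Q33 double knock-in thus came first in every complex, but in complex I its gap to the next genotype was smaller than its own SD. The order of the other 5 genotypes differed between complexes, and neighbours in it differed by less than the larger of their SDs except in complex II, where Q33 at 17.7 ± 1.29 CPM per kb lay above NTg at 16.2 ± 1.44 by slightly more. Gene by gene, 67 of 77 members had their highest genotype mean in the Q33 double knock-in, 8 in Q22 and 2 in Q33. The lowest mean was in NTg for 44 members, in Q22 double knock-ins for 22, in TDP-43 for 10 and in Q22 for 1.

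The summed level of all 77 members was 6087, 5999 and 4514 CPM in the 3 Q33 double knock-ins, against 3909, 3711 and 3588 CPM in NTg. The third Q33 double knock-in library was the lowest of its group for 74 of 77 members, yet its sum stayed above all 3 NTg sums. That sum lay within the range of other genotypes, below the first Q22 (4956 CPM), second TDP-43 (4908 CPM) and first Q33 (4531 CPM) libraries. Members moved together within other genotypes as well. The second TDP-43 library was the highest of its group for 75 of 77 members, and the first Q22 library for 63 of 77. Animals of 1 genotype thus differed in the same direction over most members, and members are not independent of each other.

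**Figure D2:**
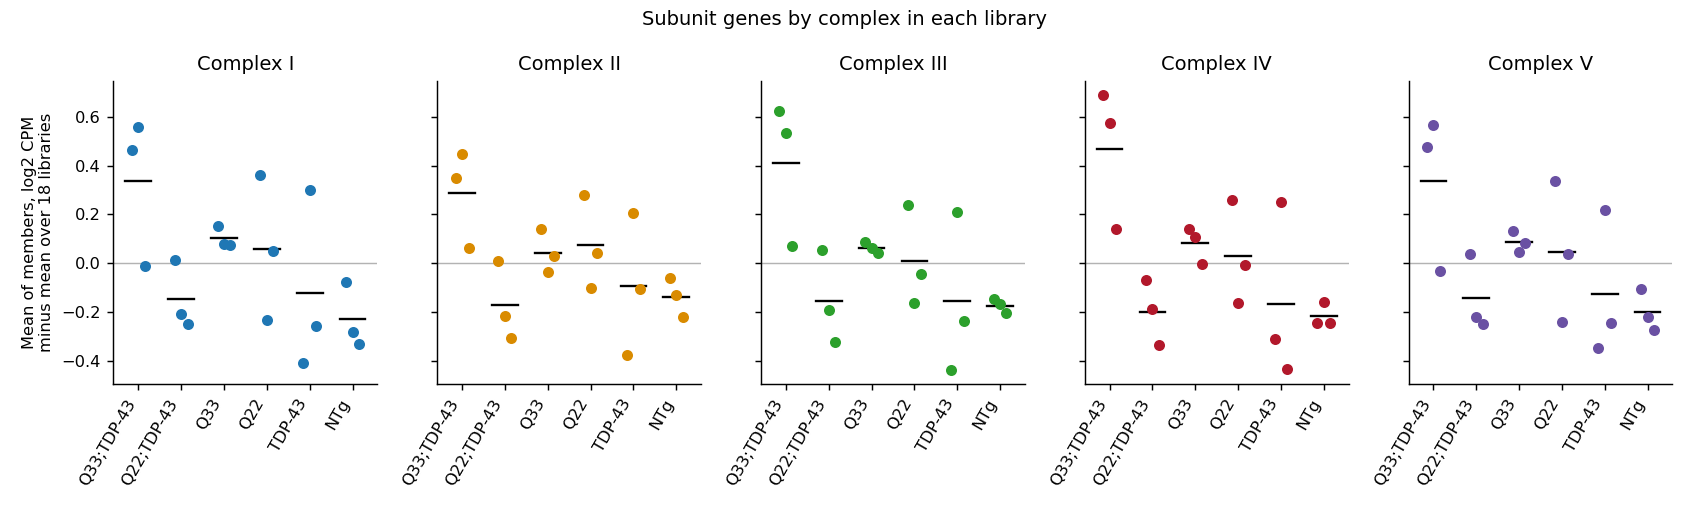
Mean log2 CPM of the members of each complex in each of the 18 libraries (points), centred on the mean over all libraries, with group means as bars and genotypes from the Q33 double knock-in on the left to NTg on the right. Over all members the Q33 double knock-ins stood at 0.51, 0.55 and 0.02 and NTg at -0.11, -0.23 and -0.29.

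The Q33 double knock-in against NTg was the comparison with the most called members. Of 77 members, 44 were higher in the Q33 double knock-in and 0 lower (edgeR quasi-likelihood test, adjusted p under 0.05 by Benjamini-Hochberg over 20635 genes), where 5.68% of all genes tested were higher and 6.39% lower. The median log2 fold change was 0.59 for the members and -0.01 for all genes. In 51 members every Q33 double knock-in library lay above every NTg library, as did 14.4% of all genes. By complex, 16 of 37 members rose in complex I, 2 of 4 in complex II, 5 of 8 in complex III, 9 of 11 in complex IV and 12 of 17 in complex V. The median log2 fold changes were 0.60, 0.46, 0.55, 0.70 and 0.54 in the same order, and all 77 were above 0. Scaled to library totals in place of TMM, 19 members were higher and 73 above 0, while all genes shifted to a median of -0.25, with 1.01% higher and 19.1% lower. The count rests on few animals. It was 4 without the first Q33 double knock-in library and 25 without the second, where 0.764% and 3.28% of all genes were higher. It was 23 without NTg replicate 1 and 20 without NTg replicate 3, where 2.64% and 1.99% were. It was 3 with the Hox level as a term, where 0.577% of all genes were higher, and 0 with the mitochondrial ribosomal RNA share as a term, where 0.00% were. The members' median log2 fold change was 0.52 with the Hox term and 0.38 with the ribosomal RNA term. With the ribosomal RNA term the medians of complexes I to V were 0.44, 0.40, 0.37, 0.24 and 0.32.

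**Figure D3:**
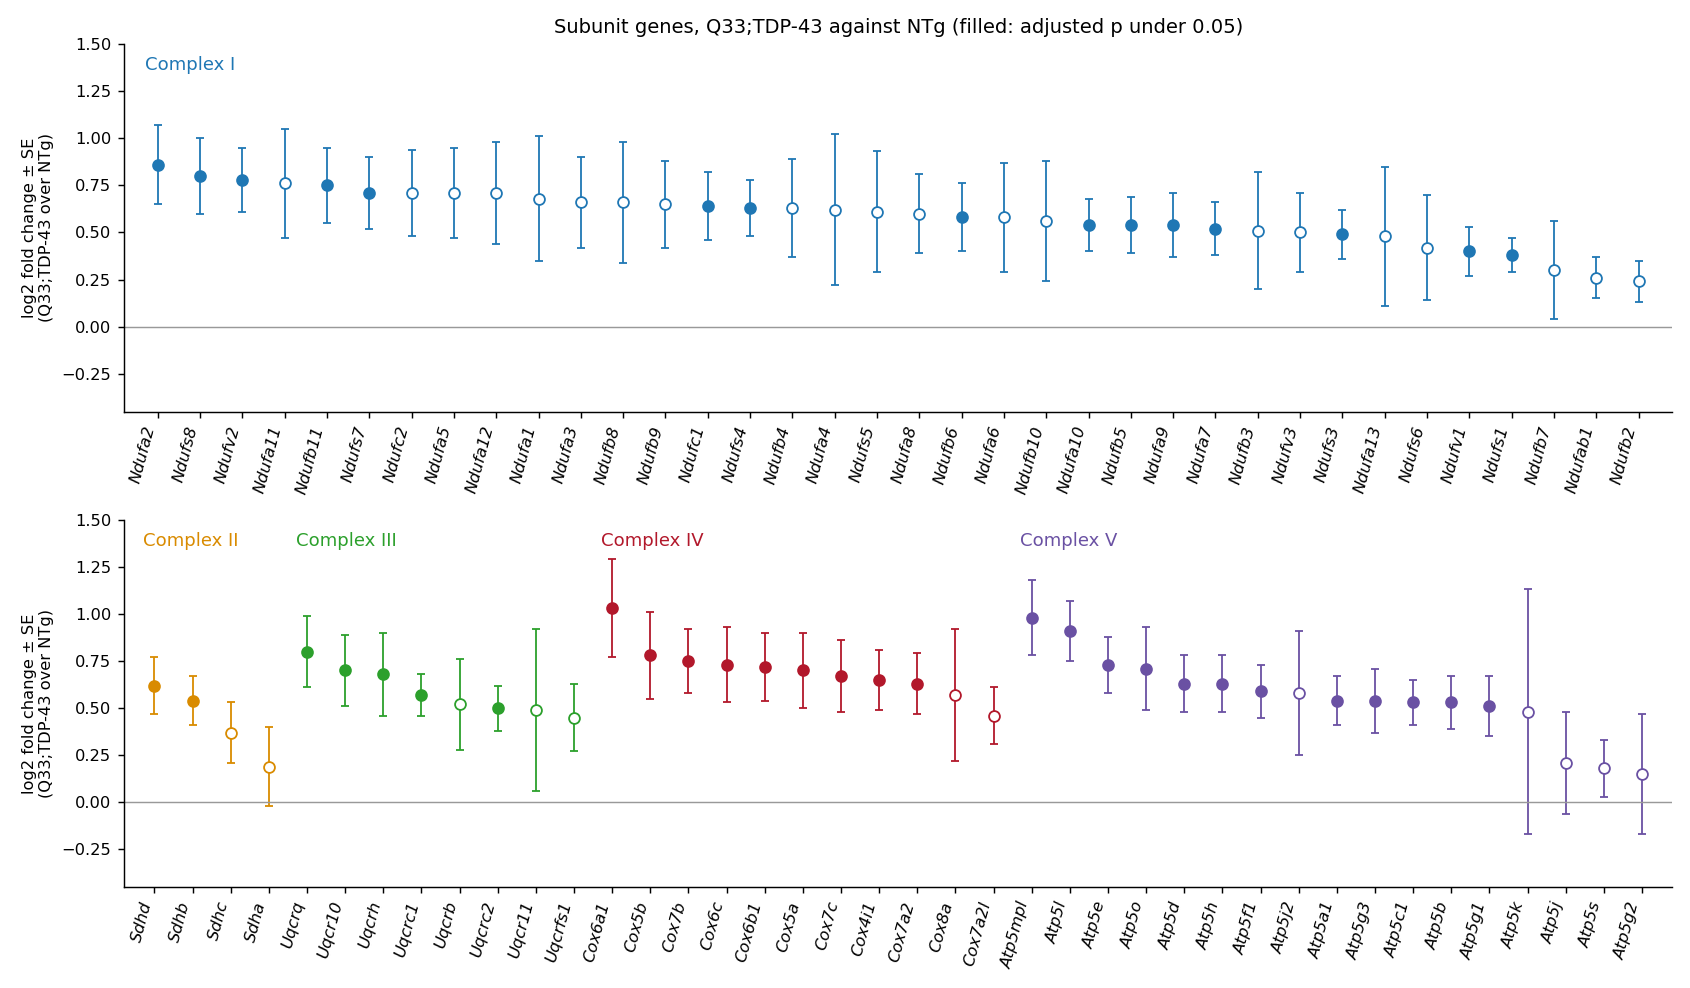
Log2 fold change of the members shown in the Q33 double knock-in over NTg, with standard errors, by complex and with filled points for members that passed the test. The values ran from 0.15 for Atp5g2 to 1.03 for Cox6a1.

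In complex I both kinds of subunit were among the called members. Core subunits that rose included Ndufs1, Ndufs8, Ndufv1 and Ndufv2. Of the 29 accessory subunits 9 rose (Ndufa2, Ndufa7, Ndufa9, Ndufa10, Ndufb5, Ndufb6, Ndufb11, Ndufc1 and Ndufs4), with a median log2 fold change of 0.60 and a median SD within a genotype of 0.34 on the log2 scale. The grouping by role, here and in the other complexes below, was drawn up after the values were seen. Ndufv2 (chr17:66078638-66101559) had 241, 222 and 161 CPM in Q33 double knock-ins, against 128, 120.1 and 115 CPM in NTg, a log2 fold change of 0.78 (SE 0.17, edgeR adjusted p = 0.0068). Ndufs1 (chr1:63143596-63176833), the largest iron-sulfur subunit, had 179, 152 and 146 CPM, against 115, 126 and 124 CPM in NTg (log2 fold change 0.38, SE 0.09, edgeR adjusted p = 0.0087). For both, all Q33 double knock-in libraries lay above all NTg libraries. Ndufb6, an accessory membrane-arm subunit (log2 fold change 0.58), was the 1 called member in which the groups overlapped, at 25.1, 18.3 and 15.3 CPM in Q33 double knock-ins and 10.4, 15.5 and 13.5 CPM in NTg.

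In complex II, 1 enzyme subunit and 1 membrane anchor rose. Sdhb (chr4:140961203-140979193), the iron-sulfur subunit, had 59.3, 51.6 and 42.4 CPM in Q33 double knock-ins, against 30.3, 38.8 and 36.2 CPM in NTg (log2 fold change 0.54, SE 0.13, edgeR adjusted p = 0.014). Sdhd (chr9:50596357-50603812), a heme-binding anchor, had 35.2, 31.7 and 28.1 CPM, against 19.9, 22.3 and 19.7 CPM in NTg (log2 fold change 0.62, SE 0.15, edgeR adjusted p = 0.015). Neither gene had overlapping groups. Sdha, at 210.1, 267 and 170.3 CPM in Q33 double knock-ins and 242, 164 and 162 CPM in NTg, overlapped and did not pass.

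In complex III the large core proteins Uqcrc1 and Uqcrc2 and the small subunits Uqcr10, Uqcrh and Uqcrq rose. Uqcrc1 (chr9:108936633-108949623) had 147, 149.7 and 119 CPM in Q33 double knock-ins, against 88.0, 101 and 90.4 CPM in NTg (log2 fold change 0.57, SE 0.11, edgeR adjusted p = 0.0053). Uqcrc2 (chr7:120635176-120659524) had 119, 93.0 and 94.1 CPM, against 59.3, 76.2 and 81.1 CPM in NTg (log2 fold change 0.50, SE 0.12, edgeR adjusted p = 0.011). Neither gene's groups overlapped.

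In complex IV the calls covered all but Cox8a and Cox7a2l, a factor of supercomplexes, and the median log2 fold change was 0.70. That was the highest median of the 5 complexes, but not in every setting: without NTg replicate 1 it was 0.62, below 0.75 in complex I and 0.69 in complex III, and with the mitochondrial ribosomal RNA share as a term it was 0.24, the lowest of the 5. Cox7b (chrX:106015700-106022450) had 140.3, 111 and 90.7 CPM in Q33 double knock-ins, against 68.4, 69.9 and 65.5 CPM in NTg (log2 fold change 0.75, SE 0.17, edgeR adjusted p = 0.0092). Cox4i1 (chr8:120668222-120674207), a subunit that contacts the catalytic core, had 140.0, 126 and 99.2 CPM, against 66.2, 80.9 and 85.2 CPM in NTg (log2 fold change 0.65, SE 0.16, edgeR adjusted p = 0.013). Cox6a1 (chr5:115345642-115348981), the isoform used outside heart and skeletal muscle, had the largest fold change of any member, with 17.9, 19.9 and 12.6 CPM against 8.44, 8.71 and 7.52 CPM in NTg (log2 fold change 1.03, SE 0.26, edgeR adjusted p = 0.017). In each of these 3 genes the groups lay apart.

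In complex V all 5 genes of the catalytic F1 head rose (Atp5a1, Atp5b, Atp5c1, Atp5d and Atp5e), as did 2 of 3 c-ring genes, 3 of 4 peripheral stalk genes and 2 of 4 small membrane subunits. Atp5l (chr9:44912557-44920742), the g subunit of the membrane part, had 168, 124 and 105 CPM in Q33 double knock-ins, against 59.2, 75.7 and 76.2 CPM in NTg (log2 fold change 0.91, SE 0.16, edgeR adjusted p = 0.002). Atp5e (chr2:174461072-174464105), the epsilon subunit, had 23.96, 21.98 and 16.4 CPM, against 12, 13.7 and 11.9 CPM in NTg (log2 fold change 0.73, SE 0.15, edgeR adjusted p = 0.0055). Atp5mpl, a small proteolipid, had 42.8, 44.96 and 30.3 CPM, against 16.8, 24.9 and 18.5 CPM in NTg (log2 fold change 0.98, SE 0.20, edgeR adjusted p = 0.0055). All 3 had groups that lay apart. Atp5g2 had the smallest fold change of all members, at 0.15 (SE 0.32, edgeR adjusted p = 0.81), with 3.75, 6.71 and 2.70 CPM against 5.29, 3.28 and 3.20 CPM in NTg.

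Members differed widely in how much they varied between animals. The SD of log2 CPM within a genotype ran from 0.09 for Ndufs1 to 0.99 for Atp5k, with a median of 0.27. The 5 most variable were Atp5k, Uqcr11, Ndufa4, Ndufa13 and Cox8a, none of which passed, and in these 5 the first NTg library held 1.99 to 3.52 times the mean of the other NTg libraries. Members with under 1000 bases of exon had a median SD of 0.35, against 0.20 for those of 2000 bases or more. Members are short, at a median of 1701 bases against 3557 for all genes tested, and short genes as a whole were higher in the Q33 double knock-in. Among other protein-coding genes averaging 1 CPM or more, the median log2 fold change over NTg was 0.39 under 1000 bases, 0.25 from 1000 to below 2000, 0.12 from there to below 4000 and -0.02 at 4000 or more. In the same length classes the members' medians were 0.62, 0.65, 0.54 and 0.51, and 44.4%, 55.2%, 68.4% and 63.6% of them were called higher, against 11.7%, 10.8%, 9.86% and 6.68% of the other genes.

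**Figure D4:**
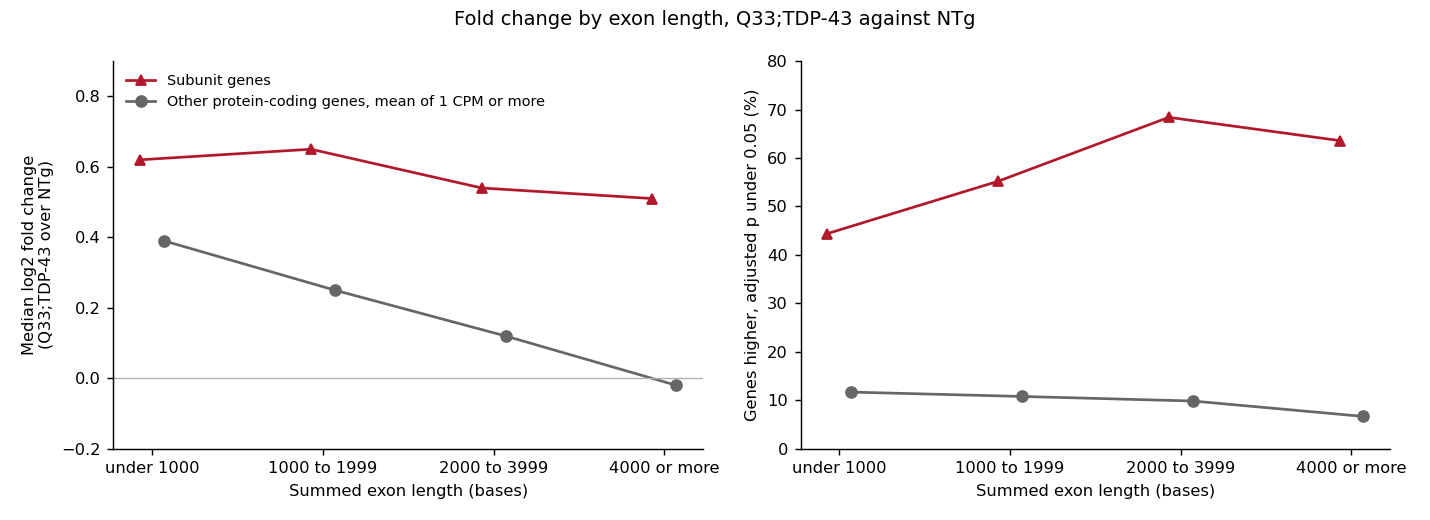
Median log2 fold change in the Q33 double knock-in over NTg (left) and percent of genes called higher (right) by summed exon length in bases, for members and for other protein-coding genes averaging 1 CPM or more. The members' medians ran from 0.51 to 0.65 and those of the other genes from -0.02 to 0.39.

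The nuclear isoforms that tissues exchange for each other were set side by side in the same comparison. Cox4i1 rose by 0.65 on the log2 scale, while its hypoxia-linked paralogue Cox4i2, at 0.425 CPM on average, had -0.35 (SE 0.49, edgeR adjusted p = 0.69). Cox6b1 rose by 0.72, against 0.02 for the testis isoform Cox6b2. Cox7a2 rose by 0.63, Cox7a2l had 0.46 (edgeR adjusted p = 0.059) and the muscle isoform Cox7a1 had 0.45 (edgeR adjusted p = 0.43). Atp5g1 and Atp5g3 rose by 0.51 and 0.54, both near the threshold, and Atp5g2 had 0.15. Isoforms of heart, muscle or testis such as Cox6a2, Cox8b and Cox7b2 had under 0.2 CPM on average. The differences between paralogues were not tested.

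The members' promoters were also split by call in this comparison. The ETS letters stood in 30.6% of the 36 windows of called members and in 15.6% of the 32 windows of the others. The NRF1 letters ran the other way, with 19.4% and 43.8%, and the YY1 letters had 13.9% and 15.6%. No test was made of these shares, and single windows move them by several points. Among 16 regulators of mitochondrial gene expression, Esrra, a nuclear receptor that drives oxidative genes, rose (log2 fold change 0.60, SE 0.15, edgeR adjusted p = 0.015), as did Lrpprc, an RNA-binding protein of mitochondria (0.24, SE 0.07, edgeR adjusted p = 0.026), and Tfam, the mitochondrial DNA packaging factor (0.28, edgeR adjusted p = 0.039). Gabpa, the ETS factor named above, was lower (-0.27, SE 0.08, edgeR adjusted p = 0.045). Nrf1 had 0.07 (edgeR adjusted p = 0.71) and Yy1 -0.13 (edgeR adjusted p = 0.33). Of all genes tested, 5.68% were higher and 6.39% lower in this comparison.

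Other genes of the pathway were counted in the same comparison, in which 5.68% of all genes tested were higher. Of 18 genes of the citric acid cycle and of pyruvate's entry into it, 14 rose and 0 fell, with a median of 0.44. The genes of pyruvate's entry were Pdha1, Pdhb, Pdhx, Dlat and Pcx. Leading among the 18 were the isocitrate dehydrogenase subunits Idh3g (0.63, SE 0.10, edgeR adjusted p = 0.00084) and Idh3a (0.48, SE 0.10, edgeR adjusted p = 0.0054). Of 13 electron carriers and other partners, a list that includes the subunit genes Cyc1 and Usmg5, 8 rose, with a median of 0.50. Among these 8 were cytochrome c (Cycs, 0.58) and the outer-membrane channels Vdac3 (0.48) and Vdac1 (0.49). Of the assembly factors, the calls were 1 of 15 for complex I (Ecsit, 0.46, SE 0.13, edgeR adjusted p = 0.027), a share near that of all genes, and 6 of 32 for complexes II to V, among them the ATP synthase factor Atpaf1 (0.52) and the complex III factor Uqcc2 (0.65). Their medians were 0.21 and 0.26. Of the 13 subunits encoded by the mitochondrial genome 1 rose, the complex I subunit mt-Nd6 (0.34, SE 0.10, edgeR adjusted p = 0.031), and their median was 0.40. That count is near the share of all genes as well. The summed level of these 13 was 29020 to 35000 CPM in Q33 double knock-ins and 21980 to 25430 CPM in NTg.

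Cell type markers moved with the same contrast, in which 5.68% of all genes tested were higher and 6.39% lower. Of 6 neuronal markers, Snap25 (0.62, edgeR adjusted p = 0.0043), Eno2 (0.50, edgeR adjusted p = 0.0053) and Stmn2 rose and Syt1 fell (-0.88, edgeR adjusted p = 0.0023), and their summed level was 7586 to 9025 CPM in Q33 double knock-ins against 5185 to 5858 CPM in NTg. The 6 motor neuron markers had a median of 0.60 with 0 called. Microglial markers summed to 85.9 to 106 CPM against 130.4 to 161 CPM in NTg, with 2 of 5 lower (Csf1r, -0.63, and Cx3cr1, -0.67). Oligodendrocyte markers summed to 9648 to 12060 CPM against 13130 to 14730 CPM in NTg. Astrocyte markers summed to 5521 to 7135 CPM against 7079 to 7439 CPM, with Gfap (-1.57) and Aqp4 (-0.49) lower among 5. Neuronal sums thus lay apart upward and the sums of microglia and oligodendrocytes apart downward. The part of these shifts in the members' levels was not tested.

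Against the Q22 double knock-in, which differs from the Q33 double knock-in in the length of the glutamine tract, 39 of 77 members were higher in the Q33 double knock-in and 0 lower, where 6.67% of all genes were higher and 6.17% lower. The Q33 double knock-in libraries are shared with the comparison with NTg, so the 2 comparisons are not independent. The calls were 14 in complex I, 2 in complex II, 6 in complex III, 7 in complex IV and 10 in complex V, with medians of 0.54, 0.48, 0.60, 0.70 and 0.57. In 46 members all libraries lay above, as did 14.8% of all genes. Uqcr10, a small complex III subunit, had the largest fold change, with 21.8, 20.7 and 14.2 CPM in Q33 double knock-ins against 12.4, 9.50 and 8.99 CPM in Q22 double knock-ins (0.87, SE 0.19, edgeR adjusted p = 0.0063). Atp5c1, the gamma subunit that turns inside the F1 head, had 166, 144 and 125 CPM against 104, 99.8 and 84.6 CPM (0.59, SE 0.12, edgeR adjusted p = 0.0036). Cox7a2 had 37.5, 30.9 and 25.1 CPM against 18.5, 19.7 and 14.9 CPM (0.81, SE 0.16, edgeR adjusted p = 0.0046). These 3 genes had groups that lay apart. The other members with the smallest adjusted p of their complex were Ndufs1 (0.43), the accessory subunit Ndufa7 (0.64), Sdhb (0.57), Sdhd (0.71), Cox7c (0.87) and Atp5l (0.75), and the smallest fold change was that of Atp5j, a peripheral stalk gene (0.10, SE 0.27). The count was 4 without the first Q33 double knock-in library, where 1.22% of all genes were higher. It was 7 without Q22 double knock-in replicate 3, where 1.31% were. With the mitochondrial ribosomal RNA share as a term it was 0, beside 0.00485% of all genes, and the members' median was 0.32. With the Hox level it was 27, beside 4.02%.

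Against TDP-43 alone, 32 of 77 members were higher in the Q33 double knock-in and 0 lower, where 5.98% of all genes were higher and 6.66% lower. The calls were 10, 2, 5, 7 and 8 in complexes I to V, with medians of 0.43, 0.42, 0.61, 0.66 and 0.49. In 27 members all libraries lay above, as did 13.1% of all genes. Uqcrq had the largest fold change, with 56.9, 49.7 and 38.8 CPM in Q33 double knock-ins against 24.4, 32.8 and 20.1 CPM in TDP-43 (0.91, SE 0.19, edgeR adjusted p = 0.0066). Ndufc1, an accessory subunit, had 41.2, 32.4 and 35.2 CPM against 19.3, 24.2 and 15.01 CPM (0.89, SE 0.18, edgeR adjusted p = 0.005). Both had groups that lay apart, whereas Cox7b, at 140.3, 111 and 90.7 CPM against 61.9, 93.9 and 55.1 CPM (0.70, SE 0.17, edgeR adjusted p = 0.013), overlapped through the second TDP-43 library. Ndufs1 (0.39), Sdhb (0.60), Sdhd (0.56), Uqcrc2 (0.58), Cox4i1 (0.74), Atp5c1 (0.56) and Atp5l (0.73) were the other leading members, and Atp5j had -0.01 (SE 0.27). The count was 2 without the first Q33 double knock-in library, where 0.788% of all genes were higher. It was 8, 16 and 53 without TDP-43 replicates 3, 1 and 2, where 1.48%, 2.49% and 8.28% were. It was 1 when only these 6 libraries were fitted, where 0.328% were. With the Hox level as a term it was 2, beside 0.46% of all genes, and the members' median was 0.41. With the mitochondrial ribosomal RNA share as a term it was 0, beside 0%, and their median was 0.26.

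Against Q33 alone, 0 of 77 members passed, beside 0.213% of all genes called higher and 0.678% called lower. At an unadjusted p under 0.05 in edgeR there were 36 members, beside 3649 of all 20635 genes. DESeq2 called 16 members higher, where 2.69% of all genes were. The median log2 fold change was 0.34, with 71 of 77 above 0, and all libraries lay above in 31 members and in 11.4% of all genes. Atp5e had the smallest p, with 23.96, 21.98 and 16.4 CPM in Q33 double knock-ins against 13.9, 13.5 and 13.2 CPM in Q33 (0.62, SE 0.15, edgeR adjusted p = 0.053). Its groups lay apart. Without Q33 double knock-in replicate 3 the test called 8 members higher, and without the low-count filter 27. Of all genes, 0.675% and 1.27% were higher in these fits. With the mitochondrial ribosomal RNA share as a term 0 members were called, beside 0% of all genes, and the members' median was 0.15. With the Hox level it was 0.32, again with 0 called, beside 0.121%. Without the first Q33 double knock-in library the median was 0.25, and without the second 0.27, with 59 of 77 above 0.

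With the low-count filter, neither tract alone, TDP-43 alone nor the Q22 double knock-in gave a called member against NTg. These comparisons share the NTg libraries, and DESeq2 also called 0 members in each. Without the low-count filter, edgeR called 17 members in Q33 and 14 in Q22, where 0.663% and 0.482% of all genes were higher, and 0 in the other 2. In Q33 against NTg, 0 of 77 members and 0% of all genes passed in edgeR. An unadjusted p under 0.05 was found for 13 members, beside 1502 of all 20635 genes. Here 74 members were above 0 with a median of 0.27, and all libraries lay above in 36 members, against 7.78% of all genes. Cox6c had the smallest p, with 118, 135 and 132 CPM in Q33 against 102, 85.7 and 79.2 CPM in NTg (0.53, SE 0.20, edgeR adjusted p = 0.66), and its groups lay apart. The most extreme members were Ndufb8 at 0.69 and Uqcrfs1 at -0.13.

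In Q22 against NTg, 0 of 77 members and 0% of all genes passed. An unadjusted p under 0.05 was found for 5 members, beside 873 of all 20635 genes. The members' median was 0.22, with 73 above 0. Only 6 members had all libraries above, beside 4.93% of all genes. Cox6a1 had the smallest p (0.73, SE 0.26, edgeR adjusted p = 0.91), with 17.1, 8.54 and 15.1 CPM in Q22 against 8.44, 8.71 and 7.52 CPM in NTg, where the second Q22 library lay among NTg. All Q22 libraries and no NTg library had Y-linked counts, so sex and genotype cannot be told apart in this pair. In TDP-43 against NTg, 0 of 77 members and 0% of all genes passed, with 0 members at an unadjusted p under 0.05, a median of 0.09, and 1 member with all libraries above beside 3.64% of all genes. Ndufb5 had the smallest p (0.25, SE 0.15, edgeR adjusted p = 1). In the Q22 double knock-in against NTg, 0 of 77 members passed beside 0.00969% of all genes, with 0 members at an unadjusted p under 0.05, a median of 0.03, and 1 member with all libraries above beside 3.20% of all genes. Uqcrfs1 had the smallest p (-0.27, SE 0.18, edgeR adjusted p = 1).

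**Figure D5:**
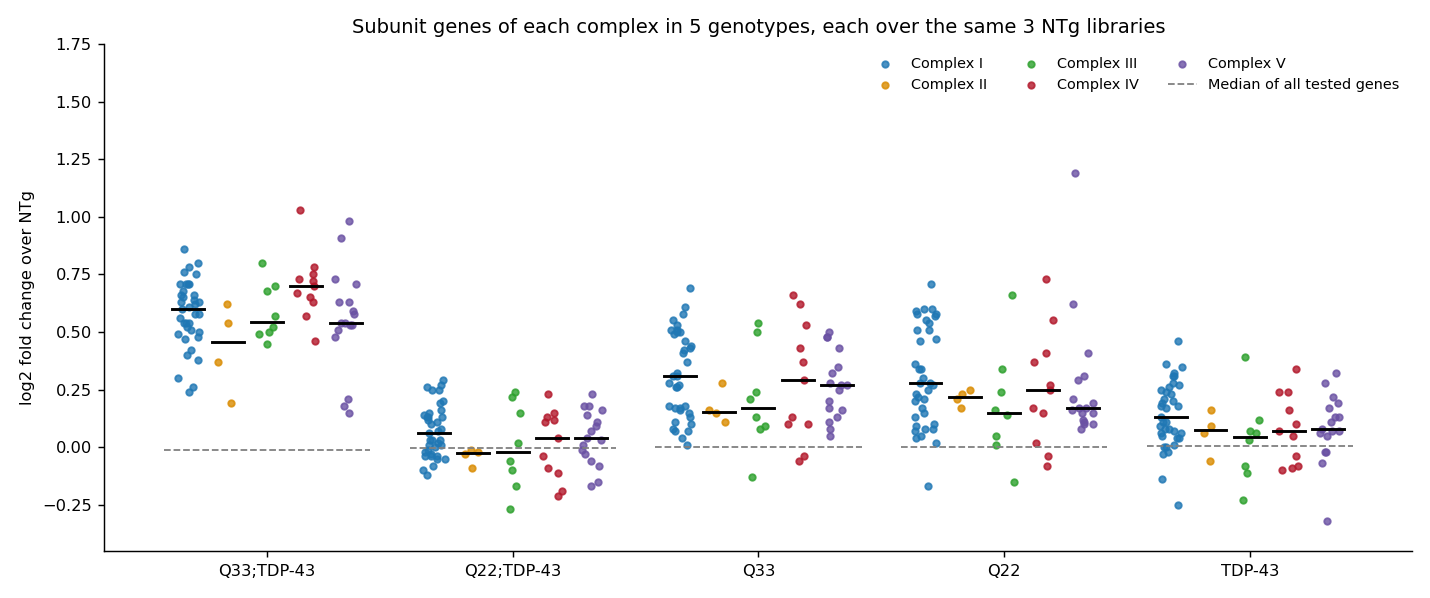
Log2 fold change of each member over NTg (points, coloured by complex) in the 5 knock-in genotypes, which share the NTg libraries, with the median of each complex as a bar and that of all tested genes as a dashed line. The bars of the Q33 double knock-in lay at 0.46 to 0.70, while the medians over all members were 0.03 for the Q22 double knock-in, 0.27 for Q33, 0.22 for Q22 and 0.09 for TDP-43.

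The Q22 double knock-in against TDP-43 and Q33 against Q22 called 0 members and 0% of all genes each, with medians of -0.06 and 0.01, and DESeq2 called 0 members in them and in both interactions below. Without the low-count filter edgeR called 6 members higher in the interaction with Q33 and 4 lower in that with Q22. In the Q22 double knock-in against TDP-43 the smallest p belonged to Ndufb5 (-0.26, SE 0.15, edgeR adjusted p = 1). In Q33 against Q22 it belonged to Ndufb2 (0.18, SE 0.11, edgeR adjusted p = 1). Both of these comparisons had 0 members at an unadjusted p under 0.05. The interaction asks whether the effect of both knock-ins together differs from the sum of the single effects. For the Q33 tract with TDP-43, 0 of 77 members and 0% of all genes passed. An unadjusted p under 0.05 was found for 15 members, beside 2674 of all 20635 genes. The members' median was 0.25, and by complex it was 0.04, 0.21, 0.47, 0.33 and 0.28. Uqcrfs1 had the smallest p (0.81, SE 0.25, edgeR adjusted p = 0.25), with 102, 69.0 and 77.3 CPM in Q33 double knock-ins, 54.9, 61.2 and 50.2 CPM in Q33, 51.3, 59.6 and 44.7 CPM in TDP-43 and 41.8, 70.7 and 69.7 CPM in NTg. The Q33 double knock-in was thus higher than either single knock-in. The NTg libraries ran from below both single knock-ins to 70.7 CPM, above the lowest Q33 double knock-in library. Over NTg, Uqcrfs1 had -0.13 in Q33 and -0.23 in TDP-43. For the Q22 tract with TDP-43, 0 of 77 members and 0% of all genes passed, and the members' median was -0.27. An unadjusted p under 0.05 was found for 2 members, beside 828 of all 20635 genes. Ndufb5 had the smallest p (-0.60, SE 0.22, edgeR adjusted p = 0.94).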

How the data were processed

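The authors deposited 1 table of raw counts per gene. Per the file headers it was made with featureCounts 1.6.1 (paired, stranded, exons summed by gene, GENCODE vM19), and multi-mapping pairs were left out. The submitters' processing notes name Trim Galore 0.4.1, TopHat2, featureCounts, DESeq2 and mm10. Per the labels' protocols the RNA was depleted of ribosomal RNA and made into stranded libraries. Symbols were matched for 99.93% of gene identifiers. Reads of the human genes were not analysed here. The values of 1 member and of 1 marker gene are not reported here, and the gene-by-gene figures leave that member out.

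From the counts, CPM were computed with TMM factors (0.861 to 1.109), and edgeR 4.0.16 (R 4.3.3, limma 3.58.1) fitted all 18 libraries together after its filterByExpr filter, which left 20635 genes. Quasi-likelihood p-values were adjusted by Benjamini-Hochberg, with 0.05 as the threshold. Fold changes are on the log2 scale. CPM on the log2 scale used a prior count of 2. A floor of 3 counts was 0.101 to 0.176 CPM and covers counting error only. Alternatives were library totals, DESeq2 1.42.0 and its size factors, other filters, mitochondrial genes taken out, only the compared groups, 3 covariates and leaving out each library. Tests were tried on simulated data. Named genes are, per comparison, the 2 called members of each complex with the smallest adjusted p and the most extreme fold changes, or the smallest p where 0 were called; per complex in NTg, the highest and lowest per kb; paralogue pairs; and the 2 leading called genes of each other list. Sdha, Ndufb6, the listed complex I subunits, the most variable members, and further list genes were named after their values were seen. The members and lists were chosen with earlier results of these data known. Batch and litter are not given in the sources used here.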

Additional observations from a re-analysis of the deposited data

How the results depend on the processing

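No paired analysis was possible because the labels number no replicates across genotypes, so a replicate number here only names a library. Of 1840 values of single called members under alternatives, 1228 kept direction and call, 610 lost the call and 2 reversed, both with the mitochondrial ribosomal RNA share as a term: Ndufb6 at -0.05 against NTg and Ndufb11 at -0.06 against TDP-43. The cause of the changes below was not tested. Covariate terms and fewer libraries leave less information for genotype, and the part of this in the changes was not tested either. Library totals in place of TMM moved the median of all genes to -0.25 in the Q33 double knock-in over NTg, and the members' median to 0.35, so that relative to all genes it stayed at 0.60. Under the same scaling 1.43% of all genes were higher and 17.6% lower over the Q22 double knock-in, and 1.24% and 18.5% over TDP-43.

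In the Q33 double knock-in over NTg (44 higher), library totals gave 19, the Hox term 3 and the ribosomal RNA term 0. DESeq2 gave 51 and the sex term 33. Of all genes, 1.01%, 0.577%, 0%, 8.48% and 4.62% were higher, in the same order. In complex I (16) library totals gave 6, no low-count filter 31, where 4.53% of all genes were higher, and both covariate terms 0. In complexes II, III and IV (2, 5 and 9) totals gave 0, 2 and 4 and both terms 0, and in complex V (12) totals gave 7, the Hox term 3 and the ribosomal RNA term 0. Leaving out 1 library gave 4 to 53 in all, and 0 to 24, 0 to 2, 1 to 5, 0 to 10 and 3 to 12 in complexes I to V. Of all genes, 0.764% to 7.29% were higher in those fits. Over the Q22 double knock-in (39) totals gave 21, the ribosomal RNA term 0 and leaving out 1 library 4 to 48. The shares of all genes were 1.43%, 0.00485% and 1.22% to 7.94%. Over TDP-43 (32) totals gave 19, no filter 52, only the compared groups 1, the Hox term 2, the ribosomal RNA term 0 and leaving out 1 library 2 to 53. The shares of all genes were 1.24%, 4.2%, 0.328%, 0.46%, 0% and 0.788% to 8.28%. Over Q33 (0) the DESeq2 size factors, a CPM minimum of 1 and taking mitochondrial genes out gave 1 each, no filter 27, DESeq2 16 and leaving out 1 library 0 to 8. The shares of all genes were 0.242%, 0.399%, 0.247%, 1.27%, 2.69% and 0% to 0.675%. No filter also gave 17 in Q33 and 14 in Q22 over NTg, 6 higher in the interaction with Q33 and 4 lower in that with Q22, where leaving out 1 library gave 0 in each.

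Taking mitochondrial genes out of the totals raised the median CPM per kb by construction. In Q33 double knock-ins, Q22 double knock-ins, Q33, Q22 and NTg complex I then had 26.6, 17.9, 21.5, 21.6 and 17. In the 6 genotypes, with TDP-43 before NTg, complex II had 31.6, 20.3, 23, 24, 20.9 and 21, complex III 46.6, 31.2, 34.2, 32.6, 30.7 and 30, complex IV 69.5, 48.3, 51.7, 47.5, 48.2 and 42.8, and complex V 26.5, 16.4, 19.3, 19.2, 17.1 and 16.1. Under library totals complex III in NTg had 24.4. Depth limited little here, since the lowest value of any member in a library was 1.51 CPM (Atp5k), above the floor of 3 counts.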
